A study of Arabidopsis thaliana with 4 samples.

Results

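RCA, LHCB4.1 and CRR28 are nuclear genes of Arabidopsis thaliana that serve the chloroplast in carbon fixation, in light harvesting and in plastid RNA editing. They were followed in ago4-1 and wild-type plants beside the transcripts that the chloroplast itself encodes. They were chosen by name, as the probe sets whose single gene symbol is one of these 3. Each of the 3 genes had 1 probe set, so the genes are 3 of 13350 named by the 13513 probe sets with a single symbol. All 3 probe sets passed the low-signal filter and were among the 15922 tested.

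The plants were 5 weeks old and grown hydroponically with 16 h of light, and RNA of whole plants was hybridised to ATH1 arrays, where several short probes together give 1 signal per transcript. The groups were 2 arrays of ago4-1 plants, which carry a mutation in AGO4, the Argonaute protein that uses small interfering RNAs to direct DNA methylation, and 2 arrays of wild-type plants of the line given as La-er. Arrays of a genotype are titled biological replicates. The number of plants behind each array is not given in the sources used here, and nothing in them says whether the 2 genotypes differ elsewhere in the genome. With whole plants, a smaller share of green tissue and less RNA per green cell cannot be told apart. Every p-value below is limited in precision by so few arrays.

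Most proteins of photosynthesis are encoded in the nucleus and imported, while the chloroplast genome keeps genes for Rubisco's large subunit, for core proteins of both photosystems and for a set of NDH complex subunits, the ndh genes. Assembly of each complex therefore needs transcripts from both genomes. RCA encodes Rubisco activase, the ATP-dependent chaperone that frees Rubisco of inhibitory sugar phosphates. LHCB4.1 encodes a form of CP29, an antenna protein that sits between the photosystem II core and its outer light-harvesting trimers. CRR28 encodes a pentatricopeptide repeat (PPR) protein that is needed for the editing of sites in the chloroplast transcripts ndhB and ndhD. Those transcripts encode subunits of the NDH complex, which returns electrons to the plastoquinone pool.

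The comparison asks which transcripts differ in ago4-1, a question that the submitters put in terms of plant development. Of these genes, CRR28 was lower in ago4-1, 2.61-fold on the scale of signal + 16, while RCA and LHCB4.1 had means at 94.7% and 96.7% of wild type and did not pass the test. CRR28 was called at an adjusted p only just under the threshold. That makes 1 of 3 called, where 4.06% of all tested probe sets were called and 1.92% were called lower and 2.14% higher in ago4-1. Throughout, a gene is called when its limma p-value, adjusted by Benjamini and Hochberg's method over all 15922 tested probe sets, is under 0.05. Differences are ago4-1 minus wild type in log2(signal + 16), where the added 16 damps the change of dim probe sets.

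CRR28 (AT1G59720, chromosome 1) had signals of 57.5 and 34.8 on the ago4-1 arrays, against 143 and 144 on the wild-type arrays. Both ago4-1 values lay far below both wild-type values, and the wild-type arrays differed from each other by much less than the ago4-1 arrays did. The means were 46.1 ± 16.1 in ago4-1 and 144 ± 1.28 in wild type (SD, n = 2 each). The log2 difference was -1.39 (SE 0.32, 95% interval -2.11 to -0.66, limma adjusted p = 0.0497). Only 0.458% of all tested probe sets had a more negative difference.

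That call sits at the edge of both the threshold and the detectable range. The low-signal filter corresponds to a signal of 44.0, so 1 of the 2 ago4-1 signals of CRR28 was below it. The direction was the same in each of 12 alternative settings in which CRR28 was tested, with log2 differences from -1.66 to -0.92, but the call held in only 3 of them. With any 1 array left out, which leaves a genotype with a single array, the call did not hold. That loss does not show that the array left out carried the difference. The difference was larger, at -1.65, without ago4-1 replicate 1, and smaller, at -1.12, without ago4-1 replicate 2.

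RCA (AT2G39730, chromosome 2) had signals of 28688 and 29754 on the ago4-1 arrays, against 30657 and 31034 on the wild-type arrays. Both ago4-1 values were below both wild-type values, by a margin of 904 signal units. Such a separation is common here: 29.2% of all tested probe sets had both ago4-1 arrays below both wild-type arrays. The means were 29221 ± 754 in ago4-1 and 30846 ± 267 in wild type (SD, n = 2 each), so the ago4-1 mean was 94.7% of the wild-type mean. The log2 difference of -0.08 (SE 0.08) did not pass (limma adjusted p = 0.635), and its 95% interval ran from -0.26 to 0.11. In ratios of ago4-1 over wild type that interval is 0.834 to 1.08.

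LHCB4.1 (AT5G01530, chromosome 5) had signals of 29679 and 31220 on the ago4-1 arrays, against 31205 and 31767 on the wild-type arrays. The genotypes overlapped, since ago4-1 replicate 2 was above wild type replicate 1. The means were 30449.6 ± 1089 in ago4-1 and 31486 ± 398 in wild type (SD, n = 2 each), an ago4-1 mean at 96.7% of the wild-type mean. The log2 difference was -0.05 (SE 0.08, 95% interval -0.23 to 0.14, limma adjusted p = 0.78), which in ratios is 0.85 to 1.10. For comparison, the median difference over all tested probe sets was -0.04, and 54.3% of them were below 0. The sign of so small a difference depended on scaling: with quantile normalization RCA stood at 0.045 and LHCB4.1 at 0.073, and with arrays centred on their medians LHCB4.1 stood at 0.0072.

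**Figure D1:**
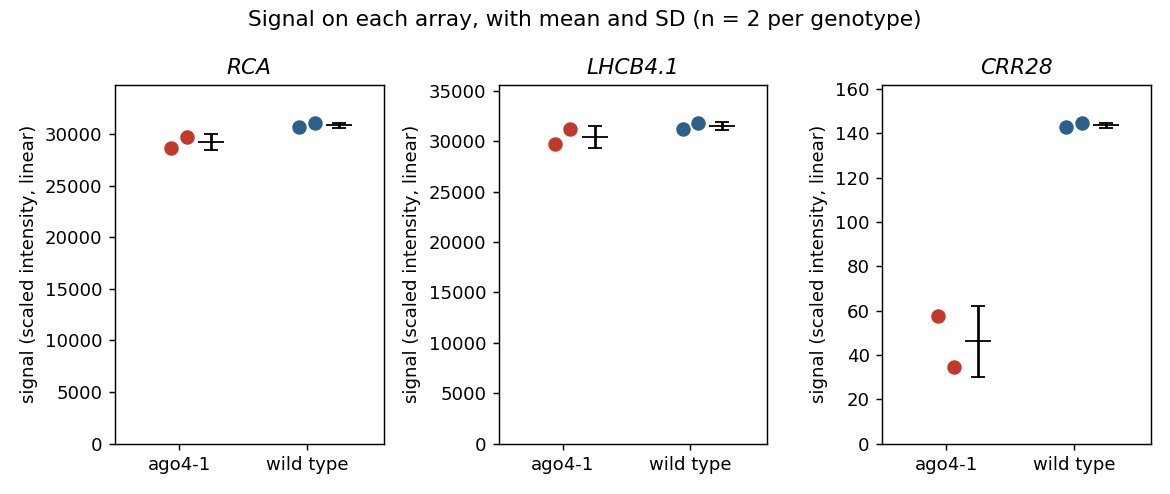
Signal of RCA, LHCB4.1 and CRR28 (scaled intensity, linear axis starting at 0) on each array, ago4-1 in red to the left of wild type in blue, with the mean and SD of the 2 arrays beside the points. CRR28 is at 57.5 and 34.8 in ago4-1 and at 143 and 144 in wild type, while the points of the other genes lie close together.

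RCA and LHCB4.1 also lie at the top of the arrays' range. Their probe sets ranked 17 and 14 by mean signal among all probe sets, below array maxima of 42660 to 45189. Over the 100 brightest probe sets the median absolute log2 difference was 0.09, against 0.24 over all tested probe sets, and 3 of the 100 were called. The largest absolute difference among those 100 was 0.58. Whether saturation held down the differences of RCA and LHCB4.1 was not tested. Signals of different probe sets are not compared as transcript levels.

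The paralogs of LHCB4.1 also had small differences, of opposite sign to each other. LHCB4.2, whose product is a second CP29 form, had signals of 17969 and 16889 in ago4-1, against 18406 and 19295 in wild type (log2 difference -0.11, SE 0.09, limma adjusted p = 0.529). LHCB4.3, which encodes a more distant form of the protein, had 10683 and 10325 in ago4-1, against 10307 and 9193 in wild type (log2 difference 0.11, SE 0.10, limma adjusted p = 0.606). LHCB4.2 had both ago4-1 arrays below wild type and LHCB4.3 had both above, and neither passed the test. Probes of such close paralogs can bind each other's transcripts, and the probe sequences were not examined.

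Of the carbon fixation list of 26 genes, 3 had a named probe set, all 3 were tested and 0 were called, with a median log2 difference of -0.12. The smallest p of the list was that of PRK, phosphoribulokinase, which makes Rubisco's substrate. PRK had signals of 12881 and 15662 in ago4-1, against 19240 and 18673 in wild type (log2 difference -0.42, SE 0.11, limma adjusted p = 0.0794). With 1 array left out its log2 difference ran from -0.56 to -0.28. SBPASE, the sedoheptulose bisphosphatase of the same cycle, had a difference of -0.12, between those of PRK and RCA. The list for photorespiration, the pathway that recycles the product of Rubisco's reaction with oxygen, had 1 tested gene, HPR, for a peroxisomal hydroxypyruvate reductase. It stood at -0.39 (SE 0.10, limma adjusted p = 0.0683), with ago4-1 below wild type on both arrays. With 1 array left out the difference of HPR ran from -0.47 to -0.31.

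Among 45 genes of light harvesting and photosystem subunits 8 were tested and 0 were called, with 6 of the 8 below 0 and a median of -0.09. Their differences ran from -0.30 for PSAN, a subunit of photosystem I, to 0.11 for LHCB4.3. Between them were PSAE-1 of photosystem I at -0.13, and PSBW, PSBY and PSB27 of photosystem II at -0.12, -0.07 and 0.0029. LHCB4.1, at -0.05, was thus a little above the median of its own group. In the electron transport and ATP synthase list 4 of 18 genes were tested, 0 were called and the median was -0.17, or -0.10 without wild type replicate 1. The members were PGRL1B, which acts in cyclic electron flow, at -0.32 (-0.059 without wild type replicate 2), TROL, which anchors a ferredoxin reductase, at -0.22, and the ATP synthase gamma subunits ATPC2 and ATPC1 at -0.13 and -0.09.

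The calls among nuclear photosynthesis genes outside the 3 under study were both in chlorophyll synthesis. Of 25 genes in that list 8 were tested, 8 were below 0 and 2 were called, both lower, with a median of -0.28. PORB, the light-dependent protochlorophyllide oxidoreductase, had signals of 1200 and 1689 in ago4-1, against 3597 and 3464 in wild type, and fell by 1.30 on the log2 scale (SE 0.17, limma adjusted p = 0.00635). PORB had about the same difference as CRR28 at a far higher signal, and its call held in 12 of 13 alternatives, the exception being the fit with no variance trend (limma adjusted p = 0.0833). HEME1, a uroporphyrinogen decarboxylase, had 2556 and 2670 in ago4-1, against 4001 and 3605 in wild type (log2 difference -0.54, limma adjusted p = 0.04998). That call was lost in 9 of 13 alternatives, among them each array left out in turn (limma adjusted p 0.0519 to 0.306). HEME2, a second decarboxylase gene, stood at -0.35, and HEMA2, for glutamyl-tRNA reductase, at -0.65.

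CRR28 was the called gene in both lists that hold it. Of 30 genes of the NDH complex and its CRR factors 7 were tested and 1 was called, with a median of -0.23. That median was -0.11 without ago4-1 replicate 1, where 8 genes were tested, and -0.12 without wild type replicate 1. CRR41 and CRR42, which act in assembly of the complex, stood at -0.32 and 0.17. The nuclear subunit genes NdhN, NdhS and NdhL stood at -0.23, -0.20 and 0.08, and 0 of the 3 were called. With 1 array left out the difference of NdhN ran from -0.43 to -0.037. Of 30 plastid RNA editing and PPR factors 7 were tested, 7 were below 0 and 1 was called, with a median of -0.45. OTP84, an editing factor of ndh and psb transcripts, had 92.7 and 84.5 in ago4-1, against 135 and 151 in wild type (log2 difference -0.60, limma adjusted p = 0.228). CRR21, which edits ndhD, stood at -0.29, OTP81 at -0.48, LPA66, which edits psbF, at -0.33, OTP70 at -0.45 and OTP85, which edits ndhD, at -0.02.

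CRR22, an editing factor of the same PPR subclass as CRR28, failed the filter and was not tested. Its signals were 7.60 and 57.7 in ago4-1, against 79.5 and 42.6 in wild type, so the genotypes overlapped. OTP86 failed the filter too, with 31.9 and 21.1 in ago4-1, against 11.3 and 6.96 in wild type, the opposite order to CRR28. OTP80 had 5.04 or less on all arrays. CRR28 was thus among the 7 of 10 named editing and PPR factors with enough signal to be tested.

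**Figure D2:**
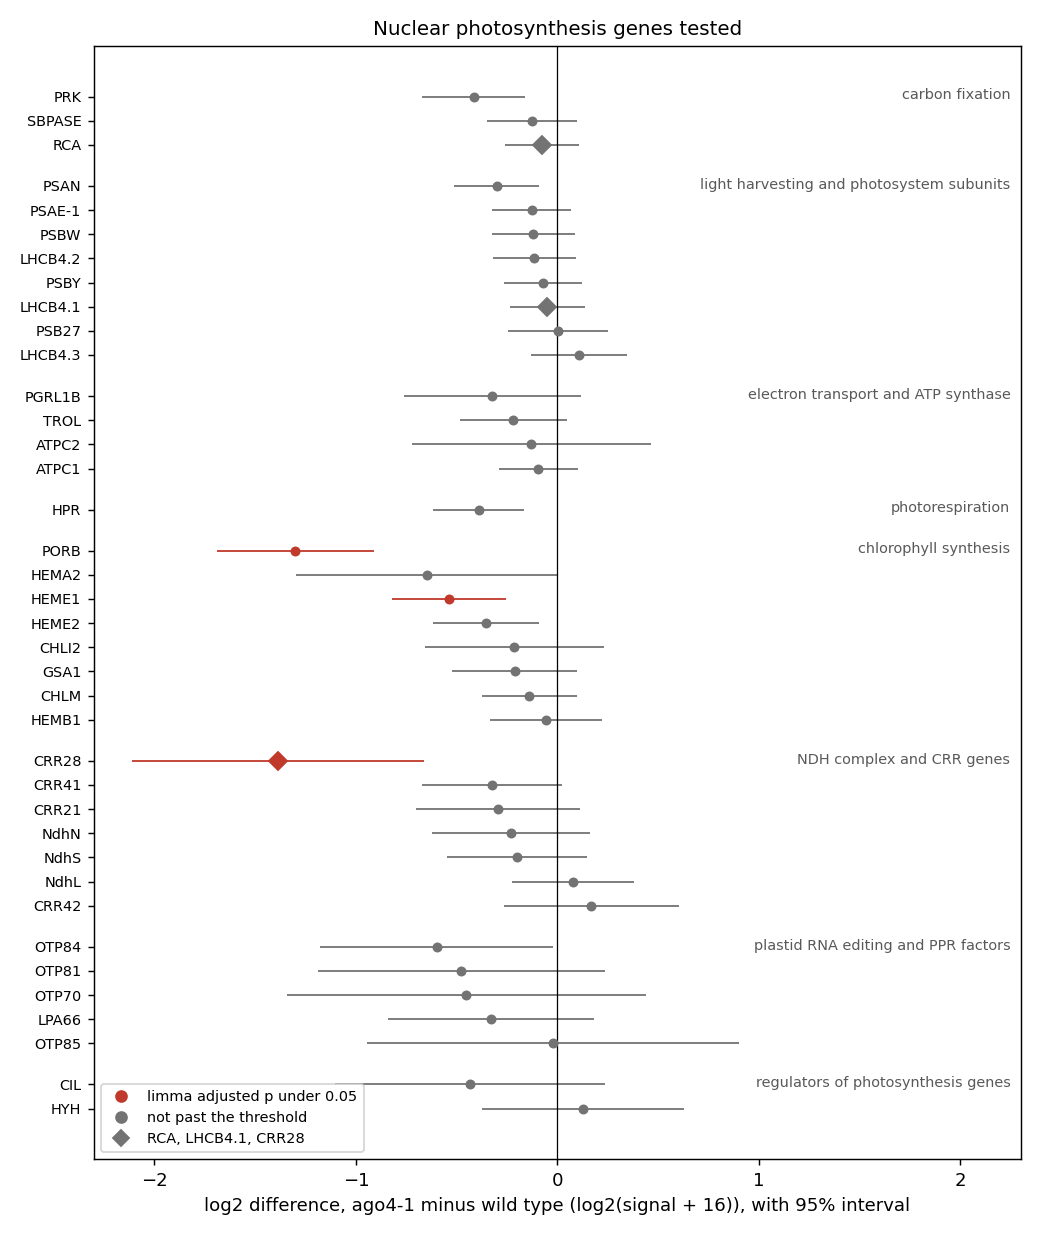
Log2 difference (ago4-1 minus wild type, in log2(signal + 16)) with its 95% interval for each tested gene of the nuclear photosynthesis lists, each gene drawn once. Diamonds mark RCA, LHCB4.1 and CRR28, and red marks an adjusted p under 0.05. PORB, HEME1 and CRR28 are the called genes of the 38 drawn, and RCA and LHCB4.1 lie at -0.08 and -0.05.

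Together the nuclear photosynthesis lists held 38 tested genes, of which 33 were below 0, 3 were called lower and 0 higher. Leaving out RCA, LHCB4.1 and CRR28, the median over the other 35 was -0.21, and 2 of them were called, or 5.71%, against 4.06% of all tested probe sets. Both ago4-1 arrays were below both wild-type arrays for 60% of these 35 genes, where the same held for 29.2% of all tested probe sets. RCA and LHCB4.1 were thus nearer 0 than the median of these genes. The regulators list had 2 tested genes, CIL at -0.43 and HYH at 0.13, with 0 called, and the plastid transcription list had 0 genes with a named probe set.

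The chloroplast-encoded transcripts are the other side of the comparison. Of 85 such genes 69 had a named probe set and 66 were tested, of which 63 were below 0 and 4 were called, all lower in ago4-1, with a median log2 difference of -0.34. That is 6.06% called, against 4.06% of all tested probe sets. Both ago4-1 arrays were below both wild-type arrays for 78.8% of them. RCA and LHCB4.1 lay above nearly all of them, with 61 of the 66 chloroplast differences more negative than either. CRR28 lay below all, with 0 of 66 more negative. The brightest chloroplast genes, nearest in signal to RCA and LHCB4.1, were all but psbM (-0.37) nearer 0 than the chloroplast median. They were rps4 at -0.04, ndhI at -0.05, atpE at -0.12 and atpB at -0.17. Nearest to CRR28 was petG at -1.23, also dim and not called (47.7 and 42.7 in ago4-1, against 95.9 and 168 in wild type). The called genes were rpl22, rps2, rps19 and rpoC2, for ribosomal proteins and a polymerase subunit, and the count of 4 was 2 without ago4-1 replicate 1, 9 without ago4-1 replicate 2, and 2 without either wild-type array. All 4 calls were lost with centred arrays, with no variance trend or with no filter on low signals.

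The difference between each gene and the chloroplast transcripts was tested within arrays, as the gene's log2 value minus the median of the 66 chloroplast-encoded genes on the same array. For RCA this value was 3.39 and 3.49 on the ago4-1 arrays, against 3.14 and 3.09 on the wild-type arrays, a difference of 0.33. For LHCB4.1 it was 3.44 and 3.56 in ago4-1, against 3.17 and 3.12 in wild type, a difference of 0.36. For CRR28 it was -5.22 and -5.70 in ago4-1, against -4.45 and -4.51 in wild type, a difference of -0.98. The genotypes did not overlap for any of the 3 genes. RCA and LHCB4.1 were higher in ago4-1 relative to the chloroplast transcripts, and CRR28 was lower. The chloroplast median itself was 11.42 and 11.37 in ago4-1, against 11.76 and 11.84 in wild type. A gene that differs little by itself, such as RCA or LHCB4.1, thus tends to be higher in ago4-1 on this measure. The share of all tested probe sets that separate on it was not computed. Signal level was not matched between the genes and the chloroplast median in this comparison. With 2 arrays a genotype the exact two-sided permutation test cannot go below p = 0.333, and each of these differences had p = 0.333. They are 3 of 16 such ratios computed, and with a smallest p of 0.333 adjustment cannot bring any of them under the threshold.

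**Figure D3:**
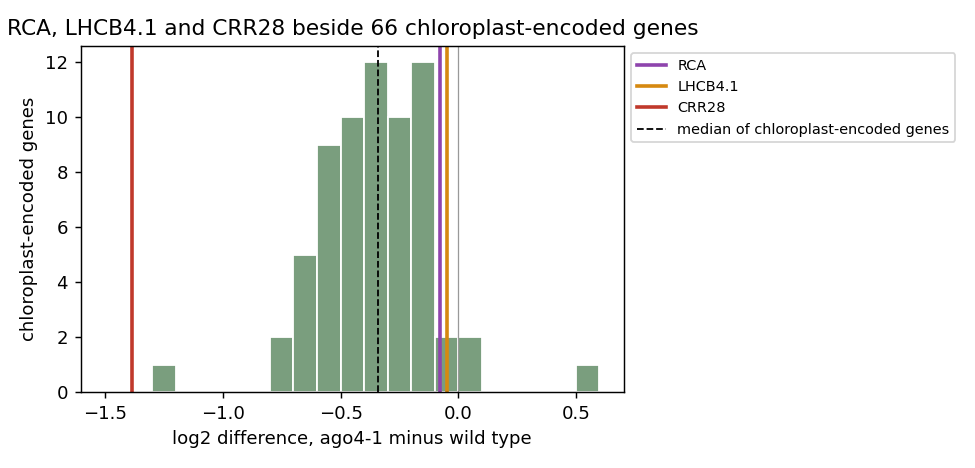
Histogram of log2 differences (ago4-1 minus wild type) of the 66 tested chloroplast-encoded genes, the vertical axis counting genes, with lines for RCA, LHCB4.1, CRR28 and the chloroplast median (dashed). RCA and LHCB4.1 lie to the right of the chloroplast median of -0.34. CRR28 lies to the left of every chloroplast gene, the nearest being petG at -1.23.

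The chloroplast partners of each gene were examined next. The chloroplast gene rbcL encodes the large subunit of Rubisco, on which Rubisco activase acts. Its signals were 2706 and 2617 in ago4-1, against 3195 and 3331 in wild type, with both ago4-1 arrays lower (log2 difference -0.29, SE 0.12, limma adjusted p = 0.216). Within arrays, the log2 ratio of RCA over rbcL was 3.40 and 3.50 in ago4-1, against 3.26 and 3.21 in wild type (exact permutation p = 0.333). The ratio of RCA over PRK also had no overlap, at 1.15 and 0.93 in ago4-1 against 0.67 and 0.73 in wild type (exact permutation p = 0.333). That of RCA over SBPASE did overlap (exact permutation p = 1).

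For LHCB4.1 the partners are the photosystem II core genes psbA, psbB, psbC and psbD, for the reaction centre and inner antenna proteins. Their differences were -0.33 for psbA, -0.57 for psbB, -0.47 for psbC and -0.39 for psbD, at limma adjusted p from 0.0863 to 0.259, and 0 of the 4 were called. In psbC, the one with the smallest p, signals were 2550.1 and 2579 in ago4-1, against 3287 and 3834 in wild type. Relative to these 4, LHCB4.1 was higher in ago4-1 by 0.29 to 0.52 on the log2 scale. The genotypes overlapped in none of these ratios (exact permutation p = 0.333 each). Each of the 4 psb genes by itself had both ago4-1 arrays below both wild-type arrays, as did 78.8% of tested chloroplast-encoded genes. These ratios thus mostly restate the psb differences, since LHCB4.1 itself differed little. Against its paralog LHCB4.2 the ratio overlapped, with a difference of 0.06 (exact permutation p = 0.667). Against LHCB4.3 it was lower in ago4-1 by a difference of -0.16 (exact permutation p = 0.333).

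For CRR28 the partners are the chloroplast ndh transcripts. Its editing target ndhD had signals of 1891 and 1751 in ago4-1, against 1995 and 2033 in wild type (log2 difference -0.15, SE 0.13, limma adjusted p = 0.581). The difference of ndhD was a small part of that of CRR28, and the within-array ratio of CRR28 over ndhD was -4.70 and -5.12 in ago4-1 against -3.66 and -3.67 in wild type (exact permutation p = 0.333). The other known target, ndhB, had no named probe set and was not analysed here. Of 10 chloroplast ndh genes with a named probe set 9 were tested, 8 of the 9 were below 0 and 0 were called, with a median of -0.17 and a range from -0.62 for ndhH to 0.07 for ndhE. The gene left untested, ndhF, had 4.91 and 2.22 in ago4-1, against 29.7 and 40.4 in wild type. These signals measure transcript amount, and editing itself was not measured.

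The place of CRR28 in the genome was also examined. By RefSeq's annotation of TAIR10.1, used for names, order and overlap only, the gene model of CRR28 overlaps that of its neighbour AT1G59710. That neighbour had signals of 28.6 and 44.8 in ago4-1, against 224 and 297 in wild type, and fell by 2.39 on the log2 scale (SE 0.30, limma adjusted p = 0.00477). The neighbour's difference was larger than that of CRR28 and of the same sign. Where the probes lie relative to the overlap was not examined, so signal from the 2 genes may not be separate. RCA also overlaps a neighbour, AT2G39725, which stood at 0.15 and was not called, and LHCB4.1 overlaps no protein-coding gene model.

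On the other side of CRR28, the next gene with a named probe set, AT1G59725, failed the filter. It had 4.27 and 4.22 in ago4-1, against 47.1 and 37.3 in wild type, so it too was lower on both ago4-1 arrays. One place beyond AT1G59710, GSTU16, a glutathione transferase gene, moved the other way, with 779 and 597 in ago4-1, against 327 and 265 in wild type (log2 difference 1.17, limma adjusted p = 0.0177). The call of AT1G59710 held in each of 12 alternatives in which it was tested and that of GSTU16 in 10 of 13, being lost, among others, without ago4-1 replicate 1 (limma adjusted p = 0.072). Of the 10 nearest named genes around CRR28, 5 on each side, 4 were tested, of which 1 was called lower and 1 higher. Of the others under the filter, AT1G59660 was lower on both ago4-1 arrays (4.16 and 40.2, against 92.4 and 78.5 in wild type). GSTU15 was higher on both (73.0 and 43.3, against 2.48 and 5.11 in wild type). The genotypes overlapped for AT1G59780, AT1G59790 and AT1G59800. Around RCA 9 of 10 were tested and around LHCB4.1 8 of 10, and 0 were called around either.

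CRR28 also lies in a stretch of chromosome 1, from AT1G55450 to AT1G67470, that was chosen because calls gather there. In it 39 of 302 tested named genes were called, 10 lower and 29 higher in ago4-1, or 12.9%, against 3.47% of the other 8351 tested named genes. These shares describe how the stretch was chosen and support nothing about CRR28.

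**Figure D4:**
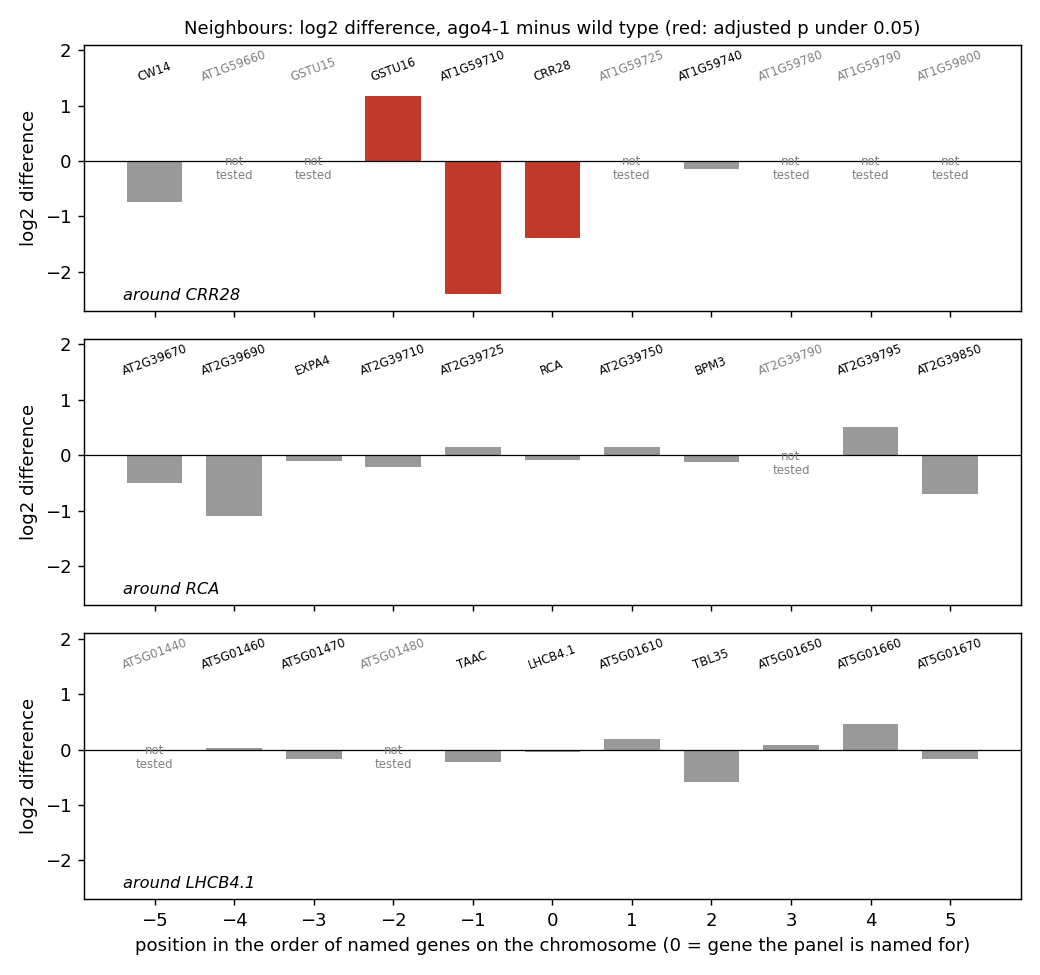
Log2 difference (ago4-1 minus wild type) of the 5 nearest named genes on each side of CRR28, RCA and LHCB4.1, in chromosome order, with red bars for an adjusted p under 0.05 and "not tested" for genes under the low-signal filter. Around CRR28 the bars of GSTU16 and AT1G59710 are red and point in opposite directions, and around RCA and LHCB4.1 no bar is red.

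The genes most like each of the 3 in pattern were found among 8726 other tested probe sets with a single symbol, as the smallest root mean square distance between log2 values of the 4 arrays after each gene was centred on its mean. For CRR28 they were UBP21, a ubiquitin-specific protease gene, at a distance of 0.10, AT2G28570 at 0.11 and AT1G56300 at 0.14. UBP21 had 125 and 66.6 in ago4-1, against 264 and 247 in wild type, and was called (log2 difference -1.33, limma adjusted p = 0.0398), a call that held in 7 of 12 alternatives and was lost, among others, without ago4-1 replicate 2 (0.0548) or wild type replicate 1 (0.0593). AT1G56300, which lies in the same stretch of chromosome 1, had 91.1 and 41.1 in ago4-1, against 191 and 182 in wild type (-1.37, limma adjusted p = 0.0602). It was called in 4 of 12 alternatives, among them without ago4-1 replicate 1 (limma adjusted p = 0.0392) and without wild type replicate 2 (0.0402). In all 3, as in CRR28, ago4-1 replicate 2 was the lowest array. The genes were chosen for a pattern like that of CRR28, so this and their lower ago4-1 signals support nothing about it.

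For RCA the nearest patterns were those of AT3G06330, AT5G13810 and AT3G60340, at distances of 0.0085 to 0.014. For LHCB4.1 they were AT3G60340, AT5G13810 and AT5G63040, at 0.008 to 0.011. The lists share AT3G60340 and AT5G13810, and RCA and LHCB4.1 themselves had a within-array log2 ratio that varied little, with LHCB4.1 over RCA at 0.05 and 0.07 in ago4-1, against 0.03 and 0.03 in wild type. All of these are nearly flat patterns over 4 arrays.

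The ratio of CRR28 over RCA, 2 nuclear genes for the chloroplast, was -8.61 and -9.20 in ago4-1, against -7.59 and -7.60 in wild type, a difference of -1.31 (exact permutation p = 0.333). The ratio over LHCB4.1 differed by -1.34 in the same way (exact permutation p = 0.333). The genotypes did not overlap in either ratio. For these ratios the ago4-1 arrays were less alike, with SDs of 0.41 and 0.43, against 0.00085 and 0.0066 in wild type. Each SD rests on 2 arrays, and the ago4-1 signals of CRR28, 57.5 and 34.8, lie around the filter level of 44.0.

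Whole plants hold several organs, and the signals of organ markers were examined. No named root marker went above 351 on any array, where array medians were 152 to 166. The markers thus do not settle how far roots contributed. Green-tissue genes were bright on all arrays, with a summed signal of the 8 light-harvesting and photosystem genes of 159044 and 155872 in ago4-1, against 165959 and 169797 in wild type. The sum of the 3 carbon fixation genes was 58256 and 61848 in ago4-1, against 69141 and 66645 in wild type. Both sums were lower on both ago4-1 arrays, and both include genes under study. The 4 named root markers of 24 summed to 411 and 185 in ago4-1, against 403 and 221 in wild type, so the genotypes overlapped, with EXPA7 and XTH26 under the filter. Most of that sum is PYK10, a root beta-glucosidase gene (351 and 137 in ago4-1, against 290.5 and 114 in wild type), while EXPA18, a root hair expansin gene, had 49.5 and 6.13 in ago4-1, against 98.1 and 76.9 in wild type. EXPA18 was thus below wild type on both ago4-1 arrays (log2 difference -1.44, limma adjusted p = 0.186). The 4 named flower and pollen markers of 28 summed to 715 and 691 in ago4-1, against 400.2 and 530.2 in wild type, with ANX1 and ANX2 under the filter and SWEET8 (665 and 612 in ago4-1, against 325 and 453 in wild type) giving most of the sum. SWEET8 was not called (log2 difference 0.71, limma adjusted p = 0.0852) except, among arrays left out, without wild type replicate 2 (0.94, limma adjusted p = 0.0247). AMS, a tapetum regulator, had 33.0 and 69.7 in ago4-1, against 65.5 and 69.2 in wild type (log2 difference -0.36), so the genotypes overlapped. The 5 named senescence markers of 21 summed to 1667 and 1678 in ago4-1, against 1852 and 1759 in wild type, with 0 called. NOL, a chlorophyll b reductase gene, had 1061 and 631 in ago4-1, against 1309 and 994 in wild type, so the genotypes overlapped. SAG29 was higher on both ago4-1 arrays, with 306 and 415 in ago4-1, against 256 and 239 in wild type (log2 difference 0.50), and 2 of the 5 were below 0. The median of the list was 0.11, and with 1 array left out it ran from -0.28 (without wild type replicate 1) to 0.48 (without ago4-1 replicate 1). WRKY53, a senescence regulator, was called without wild type replicate 2 (limma adjusted p = 0.0427). The part that organ composition has in the differences of the 3 genes was not tested.

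On quality, each array had the same trimmed mean of 500.1, medians ran from 152 to 166, and the 3' to 5' signal ratio of the GAPDH control was 1.41 and 1.74 in ago4-1, against 1.56 and 2.05 in wild type. Over tested probe sets the arrays correlated across genes at r = 0.973 within ago4-1 and 0.978 within wild type, against 0.949 to 0.96 between genotypes.

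**Figure D5:**
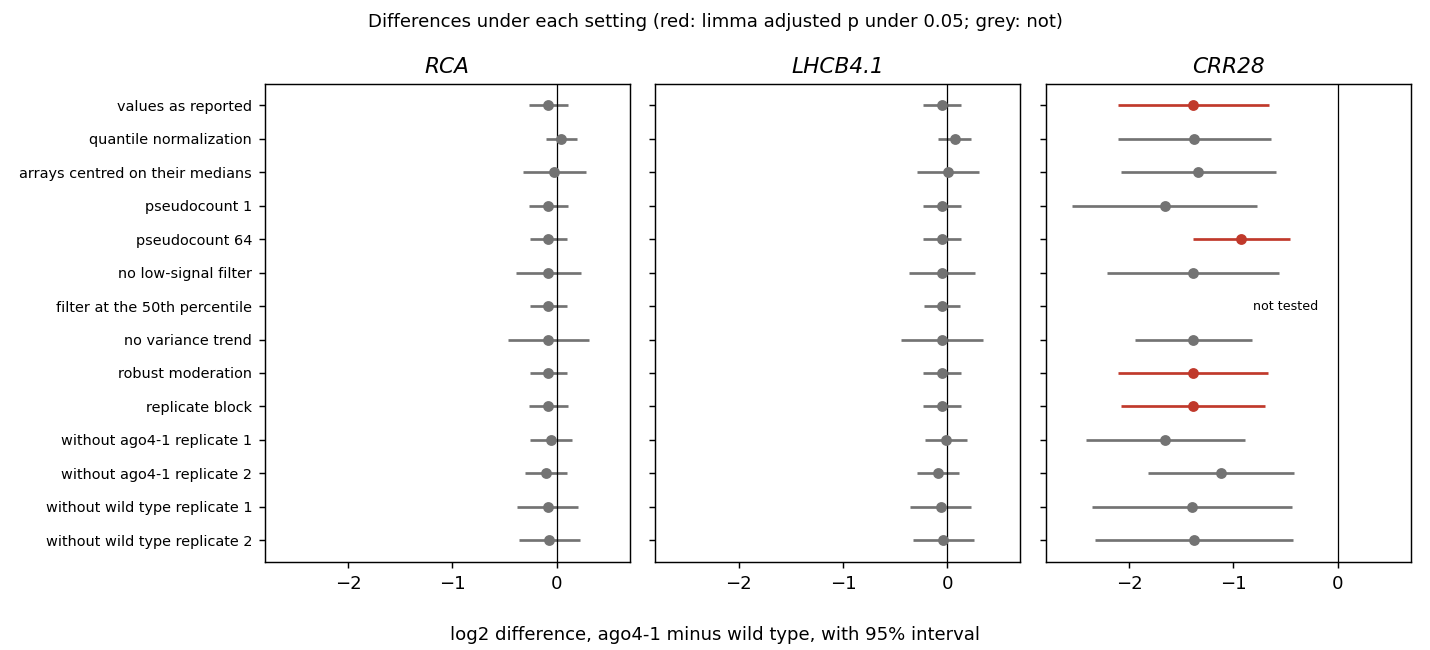
Log2 difference (ago4-1 minus wild type) of RCA, LHCB4.1 and CRR28 with its 95% interval under the reported setting and each alternative, red where the adjusted p is under 0.05. CRR28 stays between -1.66 and -0.92 and is red under the reported setting and 3 alternatives, while RCA and LHCB4.1 stay between -0.10 and 0.07 and are never red.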

How the data were processed

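Biotin-labelled total RNA of 2 ago4-1 and 2 wild-type samples was hybridised to ATH1 arrays. The deposited intensity values, 1 linear signal per probe set and array, came from GCOS, as the submitters' processing notes name it, with no version or settings given in the sources used here. A trimmed mean of 500.1 on every array shows array-wise scaling, so no normalization was added. Of 22810 probe sets 64 controls were left out; 13513 had 1 symbol in the platform annotation, 503 several and 8730 none, and 13436 were found, through their gene ID, in RefSeq's table (TAIR10.1).

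Values were taken as log2(signal + 16), and probe sets with a mean under the 30th percentile were left out. The test was limma's (version 3.58.1, R 4.3.3), two-sided, with eBayes moderation and a trend of variance on signal (residual degrees of freedom 2, prior median 6.72), adjusted by Benjamini-Hochberg at a threshold of 0.05. The procedure was tested on simulated data. Within-array ratios were compared by exact two-sided permutation. Lists used 1 probe set per gene, the brightest. The genes under study, the lists and the tests were chosen with earlier results of these data known. Genes named are the 3 under study, their chloroplast partners, up to 4 of each list by p, and the 3 most alike; list genes beyond these, and the neighbours, were added after their values were seen. Alternatives were other scalings, pseudocounts, filters and variance settings, blocking on replicate number, and leaving out each array, which lends a lone array the spread of the other genotype. Limma p-values weigh the spread between these samples together with the trend of variance over the tested probe sets. No pair of arrays was identical (0 pairs).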

Additional observations from a re-analysis of the deposited data

How the results depend on the processing

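The CRR28 call was lost with quantile normalization (log2 difference -1.37, limma adjusted p = 0.0533), arrays centred on their medians (-1.34, 0.059), a pseudocount of 1 (-1.66, 0.0561), no variance trend (-1.39, 0.0788) and no low-signal filter (-1.39, 0.142). It held with a pseudocount of 64, robust moderation and the replicate block. It fails the filter at the 50th percentile and was not tested there. With 1 array left out it ran from -1.65 to -1.12 and was never called. RCA turned above 0 with quantile normalization (0.045), and LHCB4.1 with quantile normalization (0.073) and centred arrays (0.0072); neither was called in any of 13 alternatives.

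The 647 calls over all probe sets (306 lower, 341 higher) became 93 (27 lower, 66 higher) with no variance trend, 140 (49 and 91) with no low-signal filter, and 284 to 1009 with 1 array left out (126 to 653 lower, 158 to 572 higher). The 4 chloroplast calls became 0 with centred arrays, no low-signal filter or no variance trend, and 2 to 9 with 1 array left out. The chloroplast median was -0.29 with centred arrays and -0.39 to -0.30 with 1 array left out. The carbon fixation median was -0.050 with quantile normalization, -0.069 with centred arrays and -0.22 to -0.087 with 1 array left out. The light-harvesting median was -0.011 with quantile normalization, and the chlorophyll median was -0.21 with the filter at the 50th percentile and -0.43 to -0.20 with 1 array left out. With 1 array left out the light-harvesting median ran from -0.11 to -0.058, the electron transport median from -0.21 to -0.10, the NDH median from -0.29 to -0.11 and the senescence median from -0.28 to 0.48. Relative to the chloroplast median, RCA stood at 0.46 with quantile normalization and 0.22 with no filter, LHCB4.1 at 0.48 and 0.25, and CRR28 at -1.25 with a pseudocount of 1 and -0.52 with one of 64. The cause of these changes was not tested.

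The replicate numbers were also used as a block. Same-numbered arrays deviated together at r = 0.166, but with 2 pairs the numbers are not shown to pair the samples. The replicate block gave 2409 calls among the 15922 tested probe sets (1320 lower, 1089 higher), and CRR28 at limma adjusted p = 0.0014. Of the 66 tested chloroplast-encoded genes 28 were called with it. RCA and LHCB4.1 were not called. Named genes that gained a call with the block were PRK (limma adjusted p = 0.00109), HPR (0.00324), PSAN (0.0252), HEME2 (0.0431), psbB (0.0464), psbC (0.00826), psbE, ndhJ, ndhK, SWEET8 (0.00219), EXPA18 (0.0235), NOL (0.0365), AT2G28570 and AT1G56300. Of the 4 photosystem II core genes set beside LHCB4.1, 2 passed with the block, a share near that of all chloroplast-encoded genes.

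For 60 other named genes there were 762 results over all alternatives, of which 41 lost a call, 21 gained one and 20 turned sign with no call. Above 0 were ndhI (0.057 with quantile normalization, 0.0078 with centred arrays), AT5G63040 (0.038 and 0.022), and with centred arrays AT5G13810 (0.00058) and AT3G60340 (0.0022). With 1 array left out AMS ran from -0.77 to 0.041, HYH from -0.16 to 0.41, PYK10 from -0.38 to 0.88, SAG101 from -0.27 to 0.090, ndhE from -0.36 to 0.50, AT5G63040 from -0.064 to 0.0022, WRKY53 from -0.36 to 1.20, ndhI from -0.11 to 0.017, ATPC2 from -0.48 to 0.22 and ndhG from -0.87 to 0.22.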
